A study of Homo sapiens with 6 samples.

Results

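The 8 genes described here, HAUS1 to HAUS8, encode the subunits of augmin, and they were taken by gene symbol from a table of 16655 genes measured by RNA-seq in HEK-293T cells. HEK-293T derives from human embryonic kidney and was made to express the large T antigen of SV40. Cells were transfected either with the empty pEGFP-C1 vector, which expresses GFP alone (GFP, n = 3), or with the same vector carrying GFP-tagged RfA1, a squid reflectin protein (RfA1, n = 3), and were cultivated for 24 h before harvest. Both groups therefore carried a GFP plasmid and had gone through lipofection. The expression was transient, so each library pools transfected with untransfected cells of 1 line, and a larger response in fewer cells cannot be told apart from a smaller response in more cells.

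Augmin binds along an existing microtubule and recruits the γ-tubulin ring complex, which nucleates a new microtubule as a branch of the old one. In dividing cells this branching fills the spindle with microtubules and supports kinetochore fibres. The octamer is built from a pair of tetramers. T-III holds HAUS1, HAUS3, HAUS4 and HAUS5, and T-II holds HAUS2, HAUS6, HAUS7 and HAUS8 and makes the main contact with the microtubule, largely through HAUS8, while the tail of HAUS6 engages NEDD1, the adaptor of the γ-tubulin ring complex. RfA1 had been linked to microtubules and the centrosome by the study, and the question asked of these genes was whether HAUS3 moved with the other subunits.

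The complex was chosen by its HAUS3 values: in this same contrast of RfA1 with GFP cells, HAUS3 had stood out among genes of microtubule nucleation. The difference of HAUS3 between the groups is therefore given as a description with no test, and its size restates the choice. The other 7 subunits follow from membership in the complex. All 8 genes passed the filter on low counts, as did 13002 genes in all.

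HAUS3 was higher in every RfA1 library than in every GFP library, and the rest of the complex did not share one direction. Among the other 7 subunits, HAUS1, HAUS2, HAUS6 and HAUS8 had higher fitted levels with RfA1 and HAUS4, HAUS5 and HAUS7 had lower ones. The threshold was an adjusted p of 0.05, from the quasi-likelihood test of edgeR and the Benjamini-Hochberg method over all tested genes. None of these 7 subunits passed it, and 0.0769% of all tested genes did. At an unadjusted p under 0.05, HAUS6 was higher and HAUS5 was lower, so that 2 of the 7 stood at a level that 13.9% of all tested genes reached. Without RfA1 replicate 2, the library whose removal moved the number of calls most, HAUS5, HAUS6 and HAUS7 each passed the adjusted threshold in the directions given here, as did 20.1% of all genes tested in that fit. The RfA1 libraries left in that fit correlated with transcript GC content at -0.59 and -0.66, against -0.22, 0.65 and 0.50 with GFP. Group and GC trend are thus largely confounded there. After a GC correction of all libraries, none of these 7 subunits passed.

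The libraries held 10272305 to 11566283 estimated counts each, and 7.39% to 8.02% of the values of a library were not whole. The biological coefficient of variation was 8.83%. Libraries differed along the GC content of transcripts: the Spearman correlation across genes between a library's deviation from the mean and GC content was -0.22, 0.65 and 0.50 with GFP and -0.59, 0.49 and -0.66 with RfA1. RfA1 replicate 2 thus stood apart from its group and beside GFP replicates 2 and 3, and GFP replicate 1 stood apart from the other GFP libraries. Of the markers used to check the line, KRT8, KRT18, VIM, NEFM, NEFL and LIN28B were all detected, with group means of 17.4 to 668 TPM. PTPRC and PECAM1, markers of blood and endothelium, averaged 0.005 and 0.0217 TPM over the 6 libraries, ALB averaged 0.483 TPM in GFP and 0.0867 TPM in RfA1 cells, and COL1A1, a fibroblast collagen, averaged 9.57 and 9.03 TPM.

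HAUS3 (Gene ID 79441) lies on the minus strand at chr4:2227464-2242164 (GRCh38, GENCODE 29) and is a core subunit of T-III. Levels in CPM are counts scaled to a common TMM-normalized library size. HAUS3 stood at 23.8, 23.1 and 23.1 CPM in GFP replicates 1 to 3 and at 33.9, 29.3 and 34.2 CPM in RfA1 replicates 1 to 3. The groups did not overlap, and RfA1 replicate 2 was the lowest of the RfA1 libraries. The means were 23.4 ± 0.410 CPM and 32.4 ± 2.76 CPM (SD, n = 3 each), a fitted log2 fold change of 0.47 (SE 0.10), or 38.9% more.

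HAUS1 (Gene ID 115106, chr18:46104332-46128333, plus strand), a small coiled-coil subunit of T-III, stood at 22.9, 24.4 and 23.9 CPM in GFP and at 23.4, 26.3 and 28.2 CPM in RfA1 libraries. The groups overlapped through RfA1 replicate 1. Its log2 fold change was 0.13 (95% interval -0.10 to 0.35, adjusted p = 0.566 from edgeR). HAUS4 (Gene ID 54930, chr14:22946228-22957161, minus strand) stood at 32.4, 40.1 and 38.8 CPM in GFP and at 32.8, 36.8 and 33.0 CPM in RfA1 libraries, with GFP replicate 1 the lowest of all. Its log2 fold change was -0.12 (95% interval -0.35 to 0.11, adjusted p = 0.610 from edgeR). HAUS5 (Gene ID 23354, chr19:35612744-35625349, plus strand) had the highest counts of the 8 genes, with 122.1, 138.6 and 143.0 CPM in GFP and 99.9, 134.2 and 103.7 CPM in RfA1 libraries. Here RfA1 replicate 2 lay inside the GFP range and the other two RfA1 libraries below it. The log2 fold change of HAUS5 was -0.26 (95% interval -0.51 to -0.01, adjusted p = 0.351 from edgeR). Within T-III, HAUS3 thus had company on the positive side only from HAUS1, whose interval spans 0.

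In T-II, HAUS2 (Gene ID 55142, chr15:42548810-42569994, plus strand) stood at 27.0, 24.9 and 24.0 CPM in GFP and at 28.03, 27.7 and 27.2 CPM in RfA1 libraries. Its groups did not overlap, though the highest GFP and the lowest RfA1 library lay close together. The log2 fold change of HAUS2 was 0.13 (95% interval -0.08 to 0.33, adjusted p = 0.534 from edgeR). HAUS6 (Gene ID 54801, chr9:19053143-19103119, minus strand), the subunit that reaches NEDD1, stood at 89.8, 81.1 and 77.1 CPM in GFP and at 101.0, 89.7 and 96.4 CPM in RfA1 libraries. GFP replicate 1 and RfA1 replicate 2 were nearly level. Its log2 fold change was 0.21 (95% interval 0.02 to 0.40, adjusted p = 0.325 from edgeR).

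HAUS7 (Gene ID 55559, chrX:153447666-153495516, minus strand), another subunit of T-II, stood at 64.8, 85.7 and 75.6 CPM in GFP and at 63.9, 75.9 and 54.9 CPM in RfA1 libraries, with wide spread in both groups. Its log2 fold change was -0.22 (95% interval -0.50 to 0.07, adjusted p = 0.449 from edgeR). HAUS8 (Gene ID 93323, chr19:17049729-17075625, minus strand), the microtubule-binding subunit, stood at 19.97, 21.6 and 20.9 CPM in GFP and at 22.8, 26.2 and 20.7 CPM in RfA1 libraries, where replicate 3 lay inside the GFP range. Its log2 fold change was 0.16 (95% interval -0.09 to 0.40, adjusted p = 0.518 from edgeR). Of the 7 subunits other than HAUS3, 1 (HAUS2) had every RfA1 library above every GFP library in CPM, as did 9.86% of all tested genes. None had every RfA1 library below, as did 8.01%. HAUS3 is left out of this count because the complex was chosen by its values. In the authors' TPM the groups of HAUS2 overlapped, with 12.59 in RfA1 replicate 2 and 15.33 in GFP replicate 1.

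**Figure D1:**
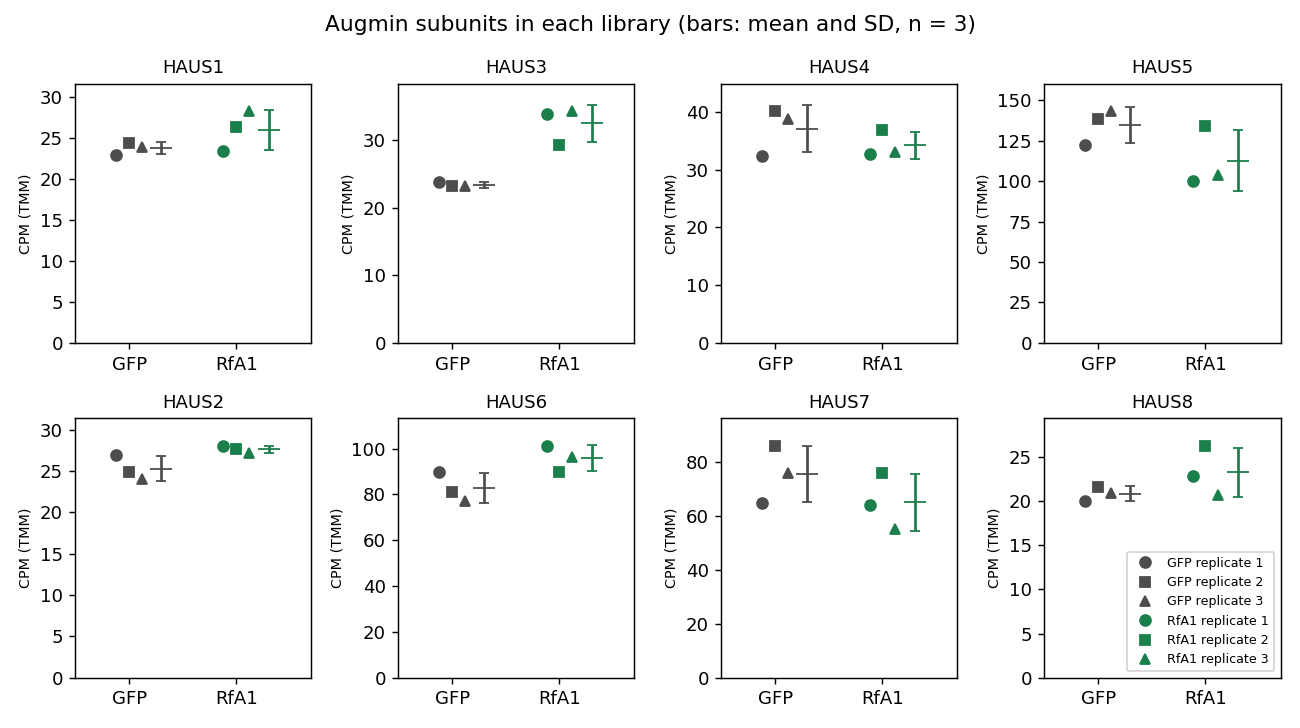
CPM (TMM-normalized, y axis from 0 in each panel) of the 8 augmin subunits in the GFP and RfA1 libraries, with T-III in the upper and T-II in the lower row, 1 symbol per library and bars for mean and SD (n = 3). The groups are apart for HAUS3 (23.1 to 23.8 against 29.3 to 34.2 CPM) and narrowly for HAUS2, and overlap for the other subunits.

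To set HAUS3 against the others within each library, each gene was taken relative to its own GFP mean on the log2 CPM scale. HAUS3 was at 0.029, -0.015 and -0.014 with GFP and at 0.53, 0.32 and 0.55 with RfA1. The median of the other 7 subunits was at -0.060, 0.046 and 0.012 and at -0.021, 0.12 and -0.010. The median of the others therefore stayed near the GFP level in RfA1 replicates 1 and 3, in which HAUS3 was highest, and was highest in RfA1 replicate 2, the RfA1 library with the least HAUS3. HAUS3 was above all 7 others in RfA1 replicates 1 and 3 and above 6 of them in RfA1 replicate 2, where HAUS8 was level with it. In the GFP libraries it was above 5, 2 and 2 of the 7. The fitted log2 fold changes of the other 7 had a median of 0.13, against a median of -0.0024 over all tested genes. HAUS3 lay 0.35 above the median of the other 7. This gap and the ranks of HAUS3 in the RfA1 libraries restate the difference by which the complex was chosen.

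**Figure D2:**
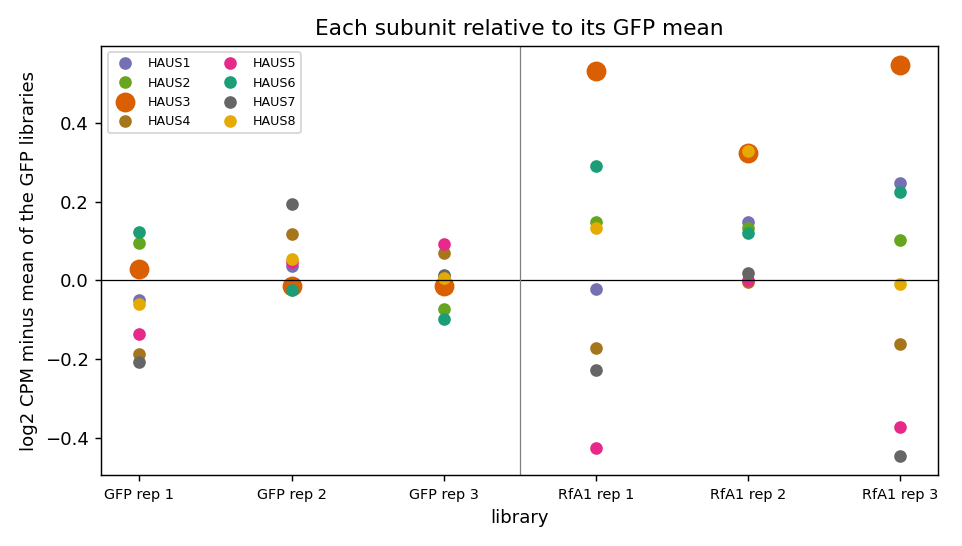
Log2 CPM of each subunit minus the mean of its GFP libraries (y axis), by library (x axis), with 1 colour per subunit and a larger symbol for HAUS3. HAUS3 is at 0.32 to 0.55 in the RfA1 libraries, while HAUS4, HAUS5 and HAUS7 are below 0 in RfA1 replicates 1 and 3.

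The subunits differed in how their levels went together over the 6 libraries, which is given as a description because the points share the groups and the GC trend. Pearson's r of log2 CPM with HAUS3 was 0.88 for HAUS6, 0.77 for HAUS2, 0.54 for HAUS1 and 0.33 for HAUS8, and -0.61 for HAUS4, -0.70 for HAUS7 and -0.84 for HAUS5. HAUS2 and HAUS6 correlated with r = 0.92, and HAUS4, HAUS5 and HAUS7 correlated among themselves with r of 0.85 to 0.89. HAUS5 and HAUS6, which belong to different tetramers, had the most opposed profiles (r = -0.93). These likenesses cross the tetramers: HAUS3 and HAUS5 are both in T-III, and HAUS6 and HAUS7 are both in T-II.

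Among the 12292 genes whose log2 CPM averaged at least 1, the profiles most like that of HAUS3 over the 6 libraries were those of CRISPLD1 (r = 0.999), ATP5PB, a subunit of the mitochondrial ATP synthase (r = 0.998), IFIT5, an interferon-induced RNA-binding protein (r = 0.998), RND3 (r = 0.995), and CD55, a regulator of complement (r = 0.994). The best-placed subunit, HAUS6, ranked 747 in this order, followed by HAUS2 at 1805, HAUS1 at 3524 and HAUS8 at 4792. HAUS4, HAUS7 and HAUS5 ranked 9389, 10139 and 11424. The 5 genes named first had 37.4% to 43.1% GC in their transcripts, below the median of 49.1% for tested genes. These correlations rest on 6 libraries and include the HAUS3 difference by which the complex was chosen, so they are a description only.

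The transcripts of the subunits differ in GC content, and the direction of a subunit went with it. HAUS3 had the lowest GC content of the 8, 37.9%, and HAUS6 was next with 38.2%, at percentiles 6.87 and 7.82 of the tested genes. HAUS1 and HAUS2 had 41.9% and 42.0%, and all 4 had positive fold changes. HAUS4, HAUS8, HAUS5 and HAUS7 had 51.8%, 53.0%, 54.0% and 60.6%, and of these only HAUS8 was positive. The median of tested genes was 49.1%, and over all of them the Spearman correlation between log2 fold change and GC content was -0.55, a value across genes, which are no independent replicates.

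After each library was corrected for transcript GC content, the log2 fold change of HAUS3 was 0.36. Those of HAUS6, HAUS1 and HAUS2 came to 0.10, 0.05 and 0.05, and those of HAUS7, HAUS5 and HAUS4 to -0.07, -0.21 and -0.10, while HAUS8 was at 0.19. The median of the other 7 thereby went from 0.13 to 0.05, and HAUS3 lay 0.31 above it. Each subunit kept its sign. With the correction 1.56% of all tested genes passed the adjusted threshold, and none of the other 7 subunits was among them.

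**Figure D3:**
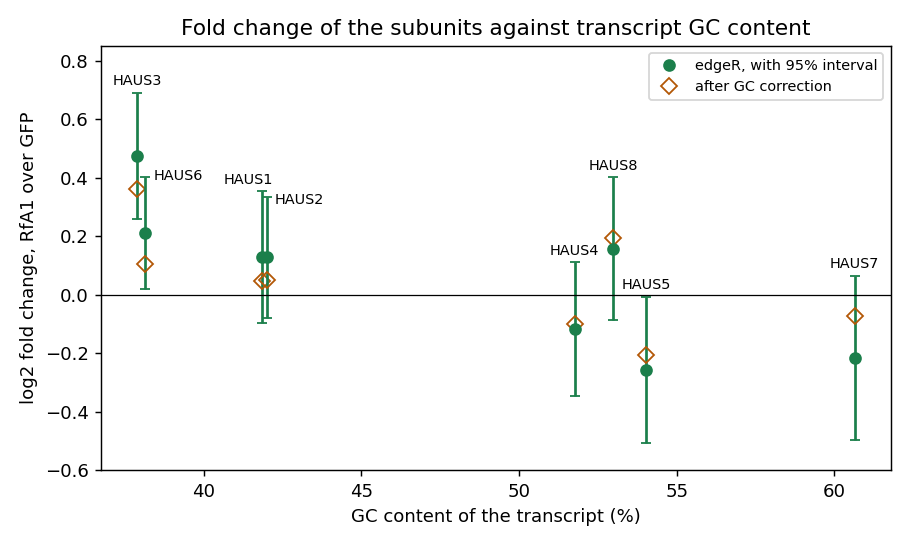
Log2 fold change of each subunit (RfA1 over GFP, y axis) against the GC content of its transcript in percent (x axis), from edgeR with 95% intervals (circles) and after GC correction (diamonds). The 4 subunits with 37.9% to 42.0% GC are above 0 and move toward it with the correction, which leaves HAUS3 at 0.36.

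HAUS3 shares its locus with POLN, which encodes the translesion DNA polymerase nu. The genes lie on the same strand, 686 of the 7067 exon bases of HAUS3 also belong to exons of POLN, and RefSeq starts both at the same base (chr4, 2242121). HAUS3 counts were not whole in any of the 6 libraries, and neither were those of POLN, whereas the other 7 subunits had whole counts throughout. The estimated counts were 264.54, 261.78 and 261.58 for HAUS3 and 92.46, 75.22 and 89.42 for POLN in GFP libraries. In RfA1 libraries they were 372.04, 307.05 and 359.1 for HAUS3 and 70.96, 69.95 and 80.9 for POLN. Their sums were whole to within 0.005 in 6 of 6 libraries, at 357, 337 and 351 counts with GFP and 443, 377 and 440 with RfA1. The authors' counting thus divided shared reads between this pair of genes.

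The log2 fold change of POLN was -0.13 (edgeR, adjusted p = 0.706), and its share of the summed counts was 25.9%, 22.3% and 25.5% in GFP and 16.0%, 18.6% and 18.4% in RfA1 libraries. Summed into 1 feature, HAUS3 and POLN gave a log2 fold change of 0.35, lower than that of HAUS3 alone. Every RfA1 library lay above every GFP library in summed counts, as did 9.86% of all tested genes in CPM. HAUS3 gave most of the summed counts, so this separation restates the choice of HAUS3. The sum also holds the reads of POLN alone, and other ways to assign the shared reads were not tested. HAUS7 also overlaps a gene on its own strand, TREX2, a DNA exonuclease gene, with which it shares 1414 of 3968 exon bases. TREX2 stood at 1.349 to 2.001 CPM, against 54.9 to 85.7 CPM for HAUS7, and its log2 fold change was 0.08 (edgeR, adjusted p = 0.905). HAUS4 shares 785 of 2539 exon bases with AL132780.3 on its strand, and HAUS1 shares 3 bases with ATP5F1A on the other strand. BGN lies within the span of HAUS7 on the other strand without shared exon bases. HAUS2 and HAUS8 share 710 and 237 exon bases with antisense genes, AC018362.2 and AC020908.1. Whether the counting used strand is not given in the sources used here.

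The shared start of HAUS3 and POLN, and the start sites of HAUS2 and HAUS5, are shown. HAUS3 and HAUS5 stood at the opposite ends of the subunits, and HAUS2 was the other gene whose groups did not overlap in CPM. The 250 bases before each start were read from RefSeq (GRCh38.p14), in which all 8 subunits and POLN were found, and are written 5′ to 3′ on the gene's strand. Capitals mark the GC box (GGGCGG, which reads CCGCCC on the opposite strand) and the cyclic AMP response element, CRE (TGACGTCA).
HAUS3 and POLN, chr4:2242122-2242371, minus strand: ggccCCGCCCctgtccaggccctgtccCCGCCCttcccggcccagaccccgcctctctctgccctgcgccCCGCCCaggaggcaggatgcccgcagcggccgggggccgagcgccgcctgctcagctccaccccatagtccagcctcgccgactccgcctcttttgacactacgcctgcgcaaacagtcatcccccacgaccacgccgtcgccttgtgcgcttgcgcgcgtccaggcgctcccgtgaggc
HAUS2, chr15:42548588-42548837, plus strand: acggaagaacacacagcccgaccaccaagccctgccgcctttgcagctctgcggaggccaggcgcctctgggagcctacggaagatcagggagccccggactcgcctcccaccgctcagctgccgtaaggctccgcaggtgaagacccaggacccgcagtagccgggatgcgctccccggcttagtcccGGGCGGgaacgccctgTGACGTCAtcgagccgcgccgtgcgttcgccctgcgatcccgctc
HAUS5, chr19:35612485-35612734, plus strand: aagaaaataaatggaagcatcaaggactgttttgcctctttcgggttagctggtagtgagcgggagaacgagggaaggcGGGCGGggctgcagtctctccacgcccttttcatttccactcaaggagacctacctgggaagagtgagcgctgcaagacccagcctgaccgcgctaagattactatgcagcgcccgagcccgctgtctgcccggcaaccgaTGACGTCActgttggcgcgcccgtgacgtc

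On both strands of these windows the letters of 8 motifs were searched: the CCAAT box, the cell cycle homology region (TTTGAA), the E2F site in the form TTCGCGC and in a variant form TTGGCGC, the CRE, the GC box, the ETS site CCGGAAG and the AP-1 site TGANTCA, and no matches overlapped. The HAUS3 window is 74% GC and held 3 GC boxes, which 42.5% of 34943 promoter windows also hold, and no other motif. HAUS2 and HAUS5 each held 1 CRE, found in 1.63% of the windows, although the fold changes of these genes had opposite signs. HAUS5 also held TTGGCGC, found in 2.55% of the windows. Matching letters are a description and do not show that a factor binds.

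Levels between the subunits were compared in the authors' TPM, which accounts for transcript length. HAUS7 was the most abundant transcript, with 88.1 ± 10.4 TPM (SD over 6 libraries), above 88.0% of tested genes. HAUS1 (42.7 ± 4.37 TPM) and HAUS5 (42.5 ± 4.65 TPM) followed, with close means over the 6 libraries. HAUS4 (36.7 ± 2.13 TPM), HAUS8 (26.6 ± 2.52 TPM), HAUS6 (20.6 ± 2.87 TPM) and HAUS2 (14.2 ± 2.32 TPM) came next. HAUS3 was the least abundant, with 7.01 ± 1.61 TPM, above 31.7% of tested genes. Each subunit was above the next in this order in 6 of 6 libraries except HAUS1 over HAUS5, which held in 2 of 6. In group means HAUS5 was ahead with GFP (45.4 against 39.9 TPM) and HAUS1 with RfA1 (45.5 against 39.5 TPM). HAUS5 was the higher of the pair in every GFP library and in RfA1 replicate 2.

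In the authors' TPM, HAUS3 was at 5.96, 5.48 and 5.67 in GFP and at 8.93, 7 and 9.01 in RfA1 libraries, so that it remained the lowest subunit in both groups. HAUS7 exceeded it 13.8, 18.8 and 16.5 times in GFP and 9.49, 13.1 and 8.13 times in RfA1 libraries. HAUS3 made up 2.06% ± 0.182 of the summed TPM of the 8 subunits in GFP and 2.99% ± 0.465 in RfA1 cells (SD, n = 3).

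**Figure D4:**
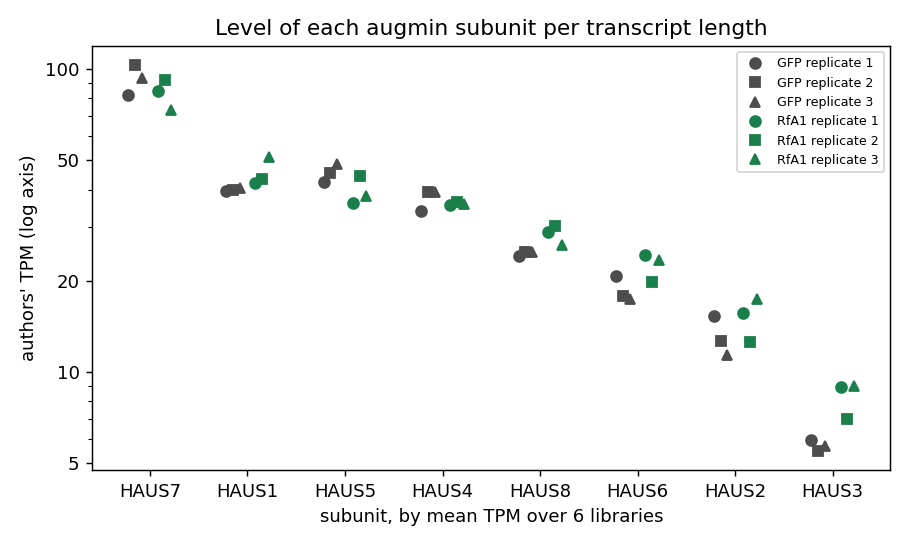
The authors' TPM of each subunit (log axis) in the 6 libraries, ordered by the mean over all libraries, with 1 symbol per library. HAUS7 is highest at 73.2 to 103 TPM and HAUS3 lowest at 5.48 to 9.01 TPM in both groups.

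The summed transcript level of the subunits did not differ beyond the spread. HAUS7 made up 33.4% of this sum in GFP and 29.8% in RfA1 cells (means, n = 3). The level of the protein complex was not measured here. The 8 subunits together stood at 264, 288 and 281 TPM in GFP and at 276, 285 and 275 TPM in RfA1 libraries. The means were 277.8 ± 12.5 and 278.8 ± 5.83 TPM (SD, n = 3; exact permutation test, two-sided, p = 1). Without HAUS3 they were 272.1 ± 12.7 and 270.5 ± 6.96 TPM (exact permutation test, two-sided, p = 0.9). With 3 libraries in each group, this test cannot give a p below 0.1. The T-II subunits summed to 149.3 and 149.5 TPM and the T-III subunits to 128.5 and 129.3 TPM in GFP and RfA1 cells.

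Another measure is the effective transcript length implied by the authors' counts and FPKM. It would move with the mix of isoforms the authors' tool assigned. The counts in it also entered the choice of HAUS3. With 3 libraries in each group, its exact test cannot give a p below 0.1. For HAUS3 it was 5579, 5588 and 5582 bases in GFP and 5553, 5576 and 5593 bases in RfA1 libraries, a range of 0.731% of its mean (exact permutation test, two-sided, adjusted p = 0.933 over the 8 subunits). HAUS2 was the exception among the subunits, with 2460, 2610 and 2888 bases in GFP and 2631, 2941 and 2291 bases in RfA1 libraries. Its range was 24.6% of the mean and did not follow the groups (exact permutation test, two-sided, adjusted p = 1). Of 8066 genes with at least 200 counts in every library, the median range was 1.11%, and 1.31% had a wider range than HAUS2. The TPM of HAUS2 therefore moved with its assigned length as well as with its counts. In the other 6 subunits the range was 0.25% to 1.77%.

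Genes around augmin were described by a list of 28. It holds components of the γ-tubulin ring complex and its adaptors, spindle assembly factors and mitotic kinases. All 28 were tested and none passed the adjusted threshold in edgeR's test, while 4 of 28 (14.3%) had an unadjusted p under 0.05, with 2 higher and 2 lower, a share close to the 13.9% of all tested genes. Their log2 fold changes were positive for 14 and negative for 14, with a median of -0.0071 and a range from -0.30 to 0.28. CDK1, the kinase that drives entry into mitosis, had the smallest p, with 87.8 ± 5.36 CPM in GFP and 101.2 ± 2.30 CPM in RfA1 cells (log2 fold change 0.21, adjusted p = 0.313 from edgeR). TUBGCP6, a subunit of the γ-tubulin ring complex, came next with 153.0 ± 5.90 and 129.7 ± 15.9 CPM (log2 fold change -0.24, adjusted p = 0.320 from edgeR). NEDD1, named here for its contact with HAUS6 after its values were seen, had a log2 fold change of 0.09 (95% interval -0.18 to 0.36). Without RfA1 replicate 2, 10 of the 28 passed the adjusted threshold, 2 higher and 8 lower, beside the 20.1% of all genes given above.

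Of 20 genes of mitosis, all tested, none passed the adjusted threshold in edgeR's test and 3 (15%) had an unadjusted p under 0.05, with 2 higher and 1 lower, again beside 13.9% of all tested genes. The fold changes were positive for 17 and negative for 3, with a median of 0.08, while 49.5% of all tested genes were positive. Of these 20 genes, 16 had transcripts below the median GC content of tested genes, and after the GC correction 13 were positive and 7 negative, with a median of 0.02. TTK, the spindle checkpoint kinase, stood at 44.7 ± 3.33 CPM in GFP and 54.1 ± 3.33 CPM in RfA1 cells (log2 fold change 0.28, adjusted p = 0.278 from edgeR). CDC20, the activator of the anaphase-promoting complex, stood at 357 ± 14.7 and 305 ± 37.3 CPM (log2 fold change -0.23, adjusted p = 0.325 from edgeR). Without RfA1 replicate 2, 6 of the 20 passed, 5 higher and 1 lower, beside 20.1% of all genes tested in that fit.

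**Figure D5:**
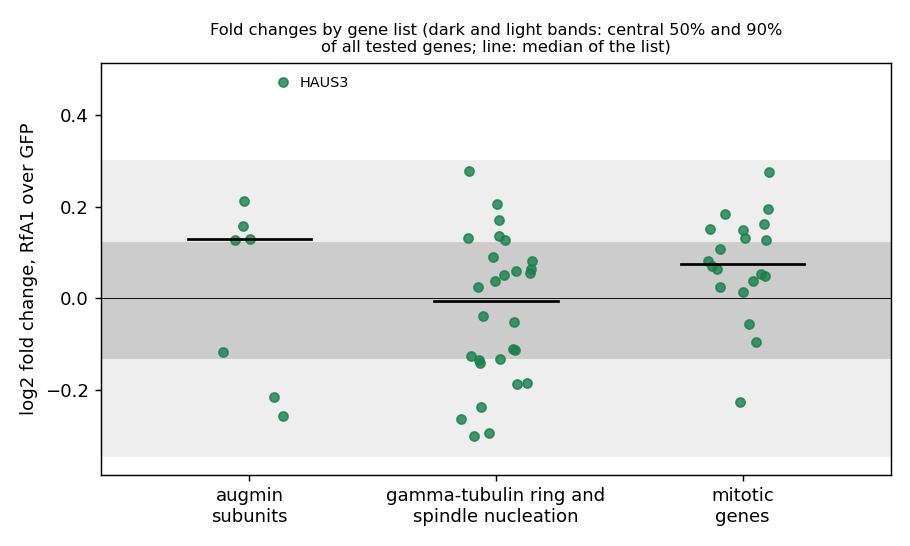
Log2 fold changes (RfA1 over GFP, y axis) of the augmin subunits, the 28 γ-tubulin ring and spindle assembly genes and the 20 mitotic genes. The 28 are labelled γ-tubulin ring and spindle nucleation. Each point is 1 gene, lines mark each list's median, and bands span the central 50% and 90% of all tested genes. The 7 subunits other than HAUS3 lie between -0.26 and 0.21, within the light band, and HAUS3, the gene by which the complex was chosen, is at 0.47.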

How the data were processed

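RNA-seq libraries of 3 GFP and 3 RfA1 cultures of HEK-293T cells were grouped by the sample labels. The authors deposited estimated counts per gene (without normalization), TPM and FPKM for each library in 1 table. The submitters' processing notes name HISAT and GRCh38.p13, and the counting tool and its strand setting are not given in the sources used here. Replicates are taken as separate samples, and where cultures were not separate, p-values measure technical spread only.

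Estimated counts were rounded to whole numbers, filtered with edgeR's filterByExpr (minimum count 10, minimum total 15), normalized by TMM and tested in R 4.3.3 by edgeR 4.0.16 (quasi-likelihood F-test with robust dispersions, two-sided), with Benjamini-Hochberg adjustment over 13002 genes. Total counts were 10272305 to 11566283 per library. Fold changes are RfA1 over GFP. Log2 CPM used a prior count of 2. Effective length was the count divided by FPKM and the library total. GC content came from GENCODE 29 transcripts (98.3% of genes matched) and entered the correction as a spline with 5 degrees of freedom per library. Coordinates of genes are those of GENCODE 29, and promoter windows those of RefSeq. Exact permutation tests were run in Python 3.11.15 with SciPy 1.17.1. The fit was tested on simulated data.

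The members, lists and tests were chosen with earlier results of these data known. Genes named were the 8 subunits, genes overlapping them, the 2 smallest p-values of each list when none passed, and the 5 genes most correlated with HAUS3. Alternatives were DESeq2 1.42.0, other normalizations and filters, limma 3.58.1 on TPM, FPKM or CPM per length in place of TPM, a GC correction, the replicate number as a block, HAUS3 summed with POLN (chosen after seeing the data), and each library left out. Plasmid transcripts were not analysed here.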

Additional observations from a re-analysis of the deposited data

How the results depend on the processing

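No subunit changed sign in 18 alternatives. HAUS3 lay above the median of the other 7 in all of them, by 0.22 (with POLN summed) to 0.48 (without RfA1 replicate 2). Its log2 fold change was 0.35 to 0.54. The alternatives reuse the libraries by which HAUS3 was chosen, so this gap restates the choice and is no evidence. The number of the 8 subunits that passed was 1 with the replicate block, with GC correction and with both, 3 at an unadjusted p, and 0 to 4 with a library left out. Each count above 0 includes HAUS3, by which the complex was chosen, so that its part in them is no evidence. Of the other 7, none passed with the block, the correction or both, and 3 passed without RfA1 replicate 2 in edgeR's test: HAUS6 (0.26, adjusted p = 0.0308), HAUS5 (-0.40, adjusted p = 0.00345) and HAUS7 (-0.34, adjusted p = 0.0271). In that fit group and GC trend are largely confounded. γ-Tubulin ring and spindle assembly genes that passed numbered 1 with the block, 4 at an unadjusted p and 0 to 10 with a library left out. Mitotic genes numbered 1, 3 and 0 to 6. Beside them, 625 of the 13002 tested genes passed with the block, 13.9% at an unadjusted p and 20.1% without RfA1 replicate 2. Over all genes, 10 passed (8 higher, 2 lower), against 33 with DESeq2 (17 and 16), 6 with upper-quartile factors (4 and 2), 20 without the filter on low counts (12 and 8), 4 with limma on log2(TPM + 1) or log2(TPM + 0.1) (4 and 0), 203 with GC correction (146 and 57), 1812 at an unadjusted p (949 and 863), and 0 (without GFP replicate 2 or 3) to 2636 (without RfA1 replicate 2) with a library left out.

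The replicate block gave 625 genes (309 and 316), and 459 (306 and 153) with GC correction. Same-numbered libraries had correlations of their deviations of 0.28, 0.44 and -0.17. These mixed values do not settle whether the replicate numbers pair the libraries. The median of the other 7 went from 0.13 to 0.0458 with GC correction and 0.0457 with the block as well. The summed TPM of the 8 subunits differed by 0.349%, against -2.65% in FPKM, -3.70% in CPM per kilobase of implied length and -2.08% to 2.29% with a library left out. For the other 7 it was -0.603%, against -3.57%, -4.60% and -3.11% to 1.41% under the same alternatives. The cause of these shifts was not tested.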
